A study of Mus musculus with 6 samples.

Results

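The 43 genes described here encode the working parts of the lysosome, the acidic organelle in which cells digest proteins, sugars and lipids: cathepsins and other hydrolases, membrane proteins, subunits of the proton pump and the transcription factors of the lysosomal gene program. They were taken by name from a list of symbols that was drawn up with earlier results of these data known, and all 43 were found among the 56847 gene IDs of the table and were among the 14215 genes that passed the filter on low counts. Messenger RNA of mouse liver was measured in 6 libraries, 3 labelled Normal diet and 3 labelled CDAHFD. CDAHFD is a high-fat diet with defined amino acids and no choline, fed to mice to model metabolic dysfunction-associated steatohepatitis. The series is about ALDH18A1 in that disease, and its design text asks how pathways of lipid metabolism and of mitochondrial function differ between the diets. The labels name no strain, genotype, sex, age or time on the diet. Nor do they state that the libraries of a diet are different mice, so the p-values rest on the spread among libraries, which may in part be technical.

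Lysosomal hydrolases are made in the endoplasmic reticulum, tagged with mannose 6-phosphate and carried to the lysosome, where they work best at acidic pH. The vacuolar ATPase, a proton pump with a membrane sector (V0) and a cytosolic sector (V1), keeps the lumen acidic. The transcription factors TFEB, TFE3 and MITF bind an element called CLEAR, built around the E-box CACGTG, in the promoters of many lysosomal genes. In liver, hepatocytes and macrophages both hold many lysosomes, and macrophages that take up dead cells and lipid express cathepsins, Cd68 and the pump strongly. RNA from bulk liver mixes these cells, so a larger share of a cell type and more RNA per cell cannot be told apart.

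The promoters of the genes were read from RefSeq (assembly GRCm38.p6), which differs from the build the submitters' processing notes name, so the windows were matched by symbol. Windows ran from 250 bases before to 50 bases after a gene's start and were held for 34 of the 43 genes. CACGTG occurred in 11 of 34 genes (32.4%), against 8.09% of the 27025 genes with a window, and TCACGTGA, the core of the CLEAR element, in 6 of 34 (17.6%) against 1.12%. Both motifs are palindromes, so a match lies on both strands, and every TCACGTGA holds a CACGTG. A match is a run of letters and no measure of binding. The 6 genes with TCACGTGA are shown because they include the protease genes Ctsa and Ctsd, the glycosidase gene Gla and the pump gene Atp6v1a, which were higher on CDAHFD, and Mcoln1 and Atp6v0d1, which did not pass the test. Each is given 5′ to 3′ on the gene's strand, with TCACGTGA in capitals.
Ctsa (chr2:164833749-164833778, + strand): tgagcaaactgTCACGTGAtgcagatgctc
Ctsd (chr7:142387908-142387937, - strand): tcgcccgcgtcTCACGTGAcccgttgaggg
Gla (chrX:134601215-134601244, - strand): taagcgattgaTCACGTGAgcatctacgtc
Atp6v1a (chr16:44139373-44139402, - strand): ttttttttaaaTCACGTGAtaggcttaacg
Mcoln1 (chr8:3500462-3500491, + strand): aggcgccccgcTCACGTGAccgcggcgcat
Atp6v0d1 (chr8:105566050-105566079, - strand): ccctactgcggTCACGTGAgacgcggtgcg

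The first base of the match lay 13 bases before the start of Ctsa (the start of its second RefSeq transcript), 99 before that of Ctsd, 46 before that of Mcoln1, 4 before that of Atp6v0d1 and 132 before that of Atp6v1a. Ctsa held another match just after that start. Gla held 2 matches, at 228 and 195 bases before its start, and the first is shown. By call, TCACGTGA occurred in 4 of 23 windowed genes that were higher, 0 of 2 that were lower and 2 of 9 that did not pass. Lamp1, which encodes a main glycoprotein of the lysosomal membrane, held 4 copies of the shorter motif in the 80 bases before its start, the most among these genes, and is shown with CACGTG in capitals.
Lamp1 (chr8:13159081-13159160, + strand): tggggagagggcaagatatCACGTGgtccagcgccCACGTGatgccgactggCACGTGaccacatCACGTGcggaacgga

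Most of the 43 genes were more abundant on CDAHFD. By edgeR's quasi-likelihood test, with p adjusted over the whole table and called below 0.05, 29 rose, 4 fell (Lamp2, Ctsf, Atp6v1h and Npc1) and 10 did not pass. That is 67.4% higher and 9.3% lower, where 28.5% of all tested genes were called higher and 23.5% lower. The median log2 change was 0.64, against 0.01 over all tested genes, and single changes ran from -0.46 for Lamp2 to 4.18 for Atp6v0d2. A rise of at least 2-fold was seen in 14 of the 43, where 18.4% of all genes had one. The CPM values (counts scaled to a common library size with TMM, a trimmed mean of the ratios between libraries) of the 2 diets did not overlap in 37 of the 43, against 60.6% of all tested genes. All log2 changes below are CDAHFD over normal diet with their standard error, from 3 libraries a diet, and levels are CPM in replicates 1, 2 and 3 of each diet unless TPM is named.

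**Figure D1:**
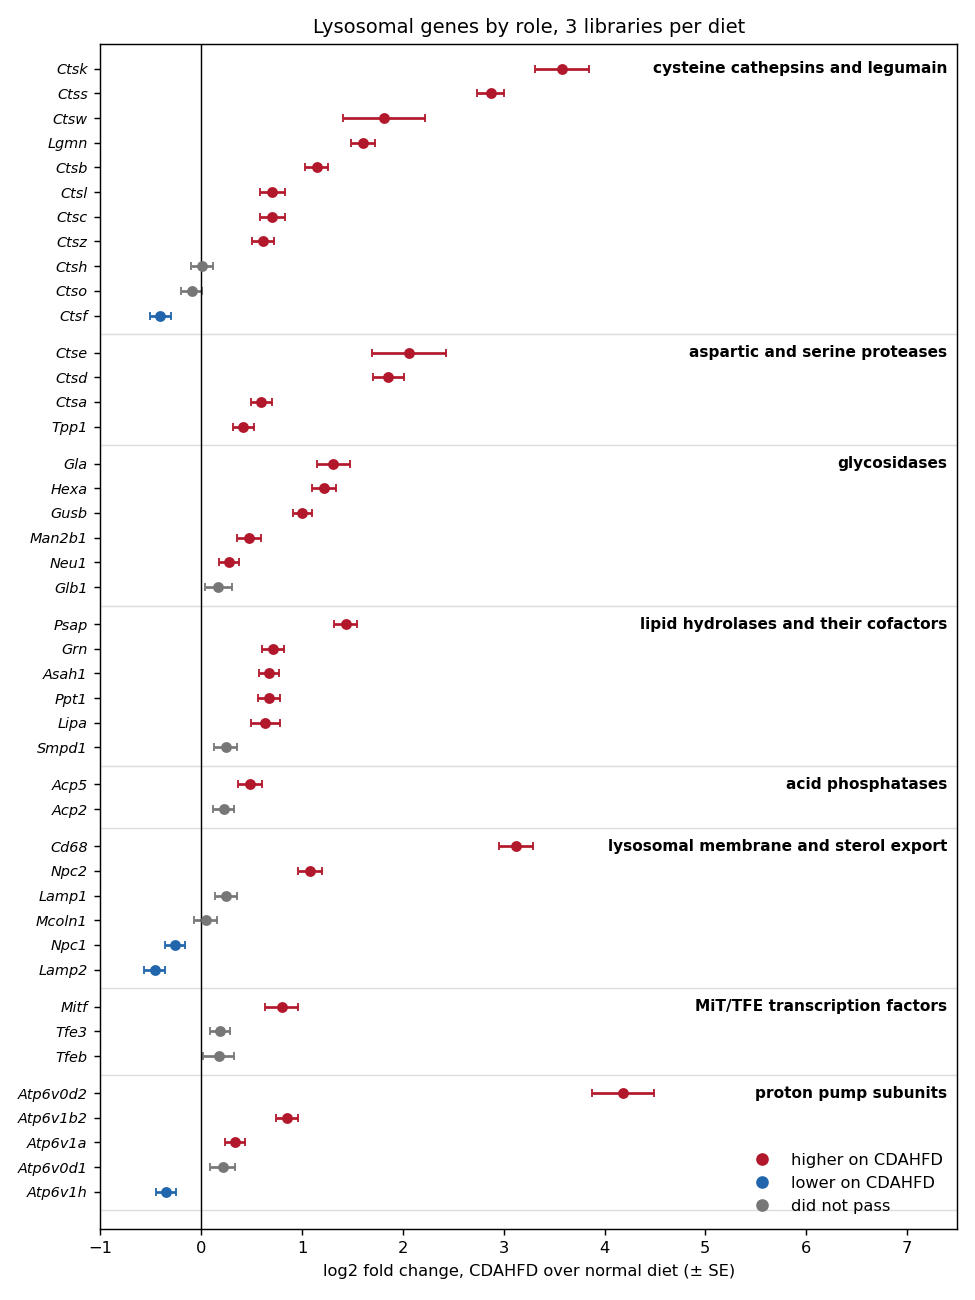
Log2 fold change of CDAHFD over normal diet (horizontal axis, with standard errors as bars) for the 43 genes, grouped by role, from 3 libraries a diet and with TMM scaling. Red points passed as higher (29), blue points as lower (4) and grey points did not pass (10), and Atp6v0d2 at 4.18, Ctsk at 3.58 and Cd68 at 3.12 lie farthest to the right, while the 4 blue points lose their call with total counts or hepatocyte markers as the scaling.

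The scaling of the libraries set how many genes were called lower. TMM factors were 0.877 to 0.907 on normal diet and 1.09 to 1.14 on CDAHFD. With the total counts alone the median of all genes moved from 0.01 to 0.34, and 44.0% of genes were called higher and 8.07% lower. Of the 43 lysosomal genes, 38 were then higher and 0 lower, with a median of 0.96. With libraries scaled to the summed counts of 10 hepatocyte marker genes, most of which were those of Alb, the median of all genes was 0.54. Of all genes 55.8% were then called higher and 3.91% lower. Here 39 of the 43 were higher and 0 lower, with a median of 1.17. The lysosomal median stood above the median of all genes under each of these 3 scalings. A change of scaling moves all genes by nearly the same amount, so this gap could hardly change and is no separate support. The 4 lower calls were lost under the other 2.

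**Figure D2:**
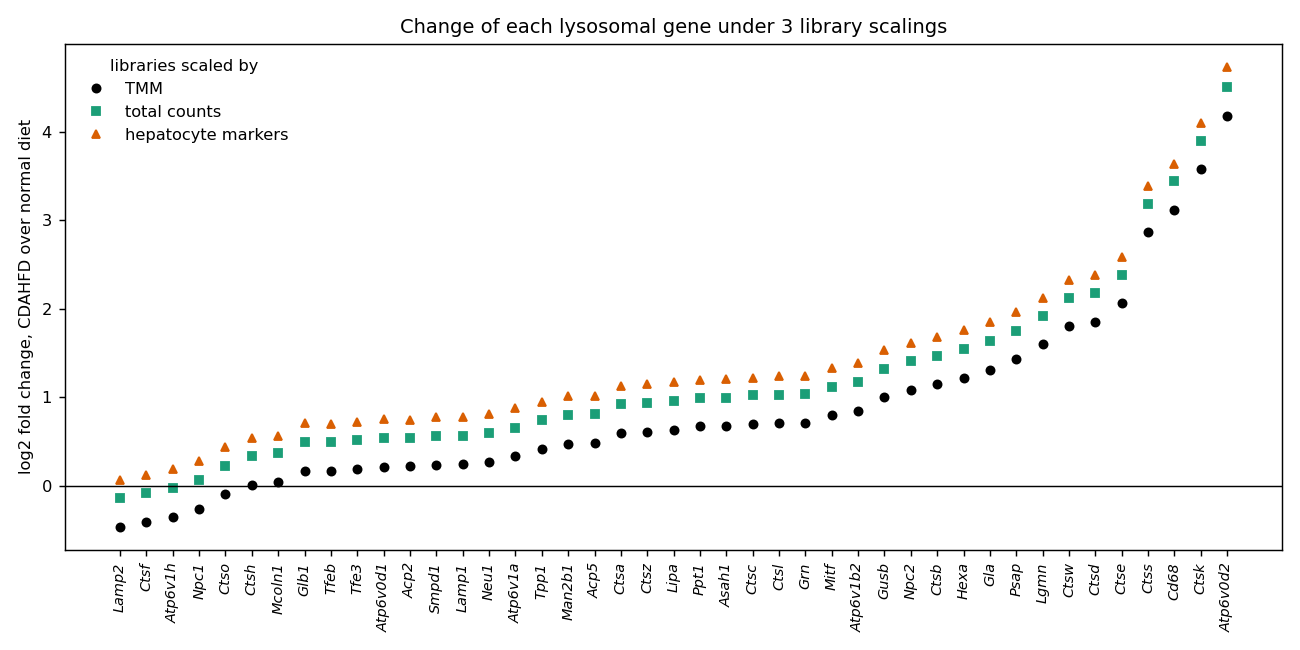
Log2 fold change of CDAHFD over normal diet (vertical axis) for each of the 43 genes (horizontal axis, ordered by the change with TMM) under 3 scalings of the libraries. For each gene TMM gives the lowest and the hepatocyte markers the highest value, and the genes at the left, Lamp2, Ctsf, Atp6v1h and Npc1, move from below 0 with TMM to above 0 with the hepatocyte markers.

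Library totals were 21986215 to 25628531 counts. Markers of other cells moved with the diets, and their part in the lysosomal changes was not tested. Of 9 general macrophage markers 8 were higher, with a summed level of 232 to 275 CPM on normal diet and 896 to 979 CPM on CDAHFD. Among them were Adgre1 (1.55 ± 0.14) and Csf1r (1.35 ± 0.12). Of 5 markers of lipid-associated macrophages 4 were higher, with a summed level of 49.0 to 112 against 730.1 to 915 CPM, led by Gpnmb (10.59 ± 0.22) and Trem2 (6.47 ± 0.22). Gpnmb had 6, 6 and 8 counts on normal diet and Trem2 5, 13 and 9. Both passed the filter on low counts only with their CDAHFD libraries, and their changes rest on a base near 0. Fabp5, which did not pass, gave 64.7, 14.9 and 76.4 CPM of the normal diet sums, and Gpnmb a mean of 516 CPM of the CDAHFD sums. Resident Kupffer cell markers summed to 245 to 353 against 293 to 504 CPM, with 2 of 6 higher, and the highest sum was that of CDAHFD replicate 2. The Kupffer cell genes Clec4f (-0.29 ± 0.19, adjusted p = 0.218) and Timd4 (-0.56 ± 0.30, adjusted p = 0.136) did not pass. Without CDAHFD replicate 2 both passed as lower, Clec4f at -0.62 (adjusted p = 0.00499) and Timd4 at -1.03 (adjusted p = 0.00722), while Marco, one of the 2 higher genes, went from 1.74 to 0.61 and lost its call (adjusted p = 0.0922). The Marco call was also lost without normal diet replicate 1 (adjusted p = 0.0644), with DESeq2 (0.0569) and with limma-voom (0.0525). Cd5l, the other higher gene (0.75 ± 0.19, adjusted p = 0.00642), kept its call when any 1 library was left out (0.51 to 0.94). Since Atp6v0d2, Ctsk and Acp5 are also known from osteoclasts, markers of that cell were read: they summed to 8.67 to 10.9 against 12.0 to 15.1 CPM. Most of each sum was Itgb3, with means of 8.68 and 10.8 CPM, which did not pass (0.31 ± 0.14, adjusted p = 0.0759), so the sums follow that gene above all. Dcstamp, Oscar and Calcr were too low to be tested, Calcr with 0 counts in every CDAHFD library. Dcstamp had 2, 0 and 1 counts on normal diet and 10, 24 and 7 on CDAHFD. Ocstamp passed narrowly (0.91 ± 0.34, adjusted p = 0.0443). The Ocstamp call was lost with DESeq2 (adjusted p = 0.061), with limma-voom (0.0642), and without normal diet replicate 1 (0.126) or 2 (0.124) or CDAHFD replicate 2 (0.262, with a log2 change of 0.50) or 3 (0.0637). Among the other lists, 7 of 7 stellate cell, 5 of 5 cholangiocyte, 7 of 8 T and NK cell and 3 of 5 B cell markers were higher. So were 3 of 3 tested neutrophil markers of 6 listed (Mpo was at 0 counts on normal diet) and 1 of 6 of sinusoidal endothelium. The T cell markers Cd3e (6, 7 and 10 counts on normal diet) and Cd3d (7, 3 and 5) passed the filter on low counts only with their CDAHFD libraries. The same holds for Itgam (4, 4 and 2) of the general macrophage list. Markers this low were tested only because they were high on CDAHFD, so their calls are no separate support. Hepatocyte markers summed to 133063 to 154589 CPM on normal diet and 90596 to 104191 CPM on CDAHFD, and 8 of 10 were lower. Most of each sum was Alb, with means of 101386 and 73248 CPM, so the hepatocyte marker scaling follows that gene above all. These counts are with TMM, where 28.5% of all tested genes were called higher and 23.5% lower. With total counts and with hepatocyte markers, 44.0% and 55.8% of all tested genes were higher. Sinusoidal endothelium then had 4 and 5 of 6 markers higher, resident Kupffer cells 3 of 6 under both, and T and NK cells 8 of 8 under both. Hepatocytes had 6 and 3 of 10 lower, and the second count is set by the scaling itself, which levels the sum of these markers. Lipid-associated macrophages had 4 of 5 higher with total counts and 5 of 5 with hepatocyte markers, and both tested osteoclast markers were higher under both.

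Cysteine proteases rose in 8 of 11 cases (72.7%, against 28.5% of all tested genes), and the gene with the largest rise among them was one of the least expressed. Of these 8, Ctsk and Ctsw passed the filter on low counts only with their CDAHFD libraries, so their calls are no separate support. Ctsk, which encodes cathepsin K, a collagen-degrading protease, measured 0.344, 0.637 and 0.55 CPM on normal diet and 7.21, 5.22 and 6.04 CPM on CDAHFD, from 7, 13 and 11 counts on normal diet. Every CDAHFD library was above every normal diet library, and the log2 change was 3.58 ± 0.27 (adjusted p = 1.35e-06). Ctss, the cathepsin S gene of antigen-presenting cells, stood at 35.1, 42.8 and 43.7 CPM on normal diet and 273, 335 and 281 CPM on CDAHFD. Its diets were separated by a wide gap, with a log2 change of 2.87 ± 0.13 (adjusted p = 5.55e-08), or 7.31-fold.

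Lgmn encodes legumain, the asparaginyl endopeptidase that processes other cathepsins to their mature chains, and it gave 75.9, 79.2 and 98.3 CPM on normal diet and 259, 254 and 257 CPM on CDAHFD. The CDAHFD libraries lay close together, 3.04-fold above normal diet, with a log2 change of 1.60 ± 0.12 (adjusted p = 1.31e-06). Ctsb, the gene of the abundant cathepsin B, was counted at 639.9, 600.5 and 686 CPM on normal diet and 1359, 1362 and 1544 CPM on CDAHFD. All CDAHFD values were above all normal diet values, and the log2 change was 1.15 ± 0.12 (adjusted p = 1.11e-05). Ctsb shares 774 exon bases with Fdft1 on the opposite strand in the reference annotation (GENCODE M21), and Fdft1 had 10706 counts over the 6 libraries against 150253 for Ctsb. Ctsw, a cathepsin gene known from cytotoxic lymphocytes, was near the detection limit at 0.295, 0.343 and 0.85 CPM on normal diet and 1.3, 2.22 and 1.71 CPM on CDAHFD. It rose by 1.81 ± 0.40 (adjusted p = 0.00303), and by 2.42 without normal diet replicate 3, the highest of its diet.

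The other 3 cysteine cathepsin genes that rose changed by a smaller amount. Ctsl, the main lysosomal endopeptidase gene of this class in many tissues, was read at 749, 687 and 655 CPM on normal diet and 1283, 1076 and 1051 CPM on CDAHFD, with no overlap and a log2 change of 0.71 ± 0.12 (adjusted p = 0.000555). Ctsc, whose product activates granule serine proteases, changed by 0.70 ± 0.12 (adjusted p = 0.000643), and the carboxypeptidase gene Ctsz by 0.61 ± 0.11 (adjusted p = 0.000665). With TMM the remaining 3 did not rise. Ctsf measured 33, 31.1 and 33.7 CPM on normal diet and 24.5, 25.2 and 24.2 CPM on CDAHFD, all CDAHFD values below all normal diet values, and fell by 0.40 ± 0.10 (adjusted p = 0.00586). With total counts its change was -0.08 and with hepatocyte markers 0.13, and neither passed. Ctsh, an aminopeptidase gene, overlapped between the diets at 301, 279 and 322 CPM on normal diet and 299.7, 288 and 319 CPM on CDAHFD (0.01 ± 0.11, adjusted p = 0.952). Ctso overlapped too (-0.09 ± 0.10, adjusted p = 0.48). With total counts Ctsh passed as higher (0.33, adjusted p = 0.0233) and Ctso did not, and with hepatocyte markers both passed as higher (0.54, adjusted p = 0.00251, and 0.44, adjusted p = 0.0144).

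**Figure D3:**
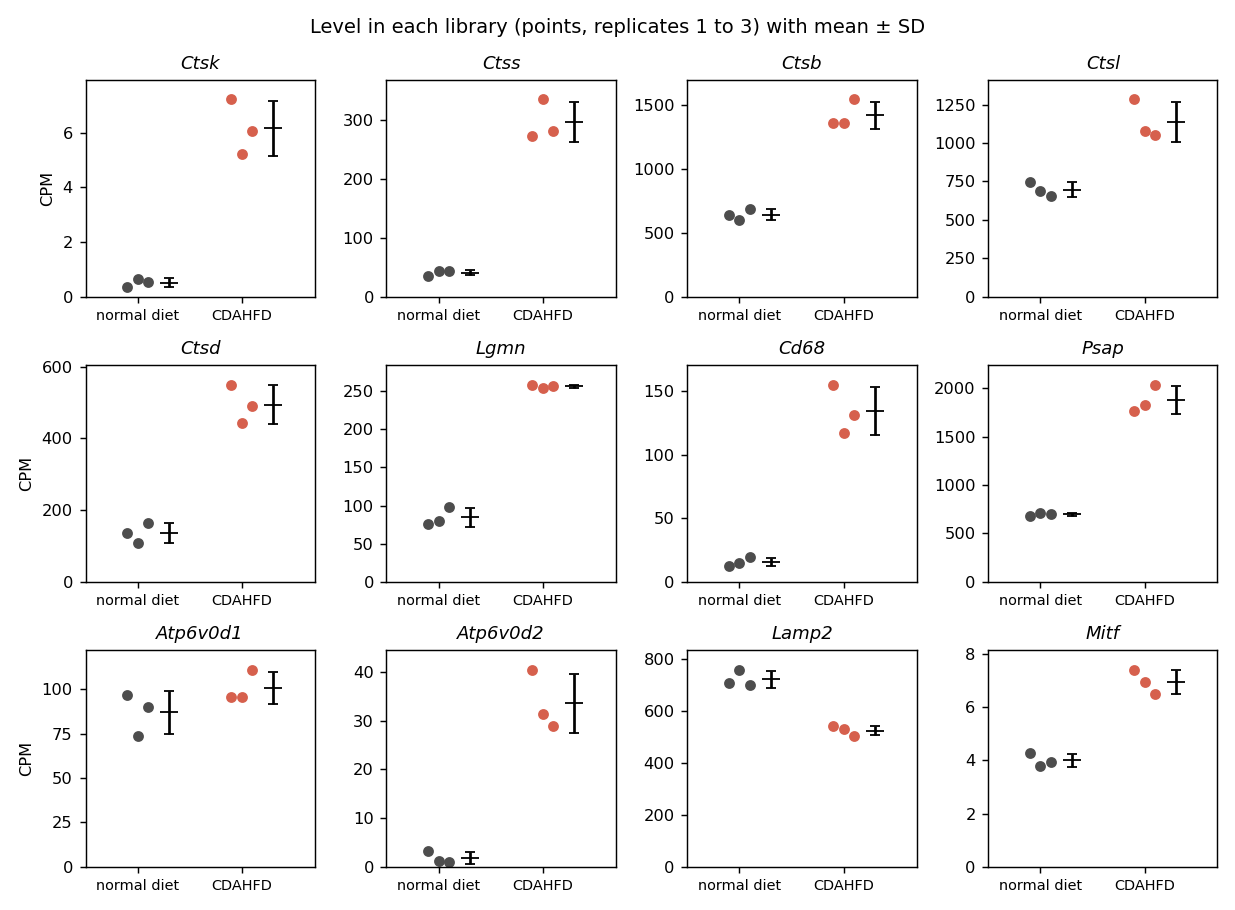
Level in CPM (vertical axes, each from 0) of 12 genes in the 3 normal diet libraries (grey points) and the 3 CDAHFD libraries (red points), with the mean and SD of each diet as black bars. In 10 panels the CDAHFD points lie above the normal diet points, as for Cd68 at 117 to 155 against 12.6 to 19.3 CPM, while the diets overlap for Atp6v0d1 and the order is turned for Lamp2.

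The other protease genes all rose with TMM, 4 of 4, and also with total counts and hepatocyte markers. Of all tested genes 28.5%, 44.0% and 55.8% were higher under these scalings. Among the 4, Ctse passed the filter on low counts only with its CDAHFD libraries, so its call is no separate support. Ctsd encodes cathepsin D, the main aspartic protease of the lysosome, and stood at 137, 109 and 164 CPM on normal diet and 550.4, 443 and 491 CPM on CDAHFD. The highest normal diet library was far below the lowest CDAHFD library, with a log2 change of 1.86 ± 0.15 (adjusted p = 2.74e-06). Ctse, an aspartic protease gene of gut and immune cells, was low at 0.295, 1.03 and 0.75 CPM on normal diet and 3.6, 2.25 and 2.88 CPM on CDAHFD and rose by 2.06 ± 0.37 (adjusted p = 0.000713). Ctsa, the protective protein that holds neuraminidase and beta-galactosidase in a complex, was read at 183, 173 and 191 CPM on normal diet and 289, 263 and 275 CPM on CDAHFD, without overlap, and rose by 0.60 ± 0.10 (adjusted p = 0.000539). Ctsa shares 495 exon bases with Pltp on the opposite strand. Tpp1, a tripeptidyl peptidase gene, rose by 0.42 ± 0.10 (adjusted p = 0.00584).

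Glycosidases, which trim sugars from glycolipids and glycoproteins, rose in 5 of 6 cases (83.3%, against 28.5% of all tested genes). Gla, the alpha-galactosidase that cleaves globotriaosylceramide, was read at 5.35, 3.97 and 4.2 CPM on normal diet and 10.7, 10.8 and 12 CPM on CDAHFD. The diets were apart, with a log2 change of 1.31 ± 0.16 (adjusted p = 5.40e-05). Hexa, the alpha chain of beta-hexosaminidase, which acts on the ganglioside GM2, gave 60.6, 52.5 and 50.7 CPM on normal diet and 122, 115 and 144 CPM on CDAHFD, a gap between the diets and a log2 change of 1.22 ± 0.12 (adjusted p = 1.00e-05). Gusb, the beta-glucuronidase gene, went from 38.1 ± 1.08 to 76.2 ± 3.42 CPM (mean ± SD), a 2-fold rise (1.00 ± 0.10). Man2b1, which removes mannose residues, rose by 0.47 ± 0.11 (adjusted p = 0.00478). The 2 partners of Ctsa moved least. Neu1, the neuraminidase, measured 53.9, 49.2 and 48.6 CPM on normal diet and 60.5, 58.6 and 64.5 CPM on CDAHFD and rose by 0.27 ± 0.10 (adjusted p = 0.0357), but leaving out each of the 6 libraries in turn lost this call every time (adjusted p = 0.0556 to 0.166). Glb1, the beta-galactosidase, overlapped between the diets at 14.4, 15.1 and 15.3 CPM on normal diet and 15.6, 15.1 and 19.8 CPM on CDAHFD and did not pass (0.17 ± 0.13, adjusted p = 0.311). With total counts and with hepatocyte markers all 6 genes were higher, where 44.0% and 55.8% of all tested genes were.

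Lipid hydrolases and their cofactors rose in 5 of 6 cases, and in 6 of 6 with total counts or hepatocyte markers. Of all tested genes 28.5% were higher with TMM, 44.0% with total counts and 55.8% with hepatocyte markers. Psap encodes prosaposin, the precursor of the saposins that present sphingolipids to their hydrolases, and was counted at 681, 706 and 702 CPM on normal diet and 1765, 1830.3 and 2038 CPM on CDAHFD. Normal diet libraries were nearly equal, all CDAHFD libraries were above them, and the log2 change was 1.43 ± 0.11 (adjusted p = 1.87e-06). Lipa, the lysosomal acid lipase that frees cholesterol and fatty acids from lipoprotein and droplet lipid, stood at 177, 234 and 174 CPM on normal diet and 298, 265 and 346 CPM on CDAHFD. It spread more within a diet than Psap but did not overlap between them (0.64 ± 0.14, adjusted p = 0.0033). Asah1, the acid ceramidase, rose by 0.67 ± 0.10 and Ppt1, which removes palmitate from proteins, by 0.67 ± 0.11. Grn, the progranulin gene, whose product binds prosaposin and regulates hydrolases, rose by 0.71 ± 0.11 (adjusted p = 0.000261). Smpd1, the acid sphingomyelinase, had no overlap between the diets but did not pass (65.5, 53.9 and 65.4 CPM on normal diet and 73.7, 66.9 and 77.8 CPM on CDAHFD, 0.24 ± 0.11, adjusted p = 0.0945). Reads of Ppt1 may include some of Cap1, a neighbour on the opposite strand that shares 129 exon bases and had 19393 counts against 6549.

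Of the acid phosphatases, Acp5 (tartrate-resistant acid phosphatase, known from osteoclasts and macrophages) measured 99.4, 86.2 and 112 CPM on normal diet and 141, 128 and 147 CPM on CDAHFD and rose by 0.48 ± 0.12 (adjusted p = 0.00577). Acp2, the widely expressed lysosomal form, did not pass (0.22 ± 0.10, adjusted p = 0.0906), though its libraries did not overlap. Both were higher with total counts and with hepatocyte markers, where 44.0% and 55.8% of all tested genes were.

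Of 6 genes of the lysosomal membrane and of sterol export, 2 were higher and 2 lower (33.3% each), near the 28.5% and 23.5% of all tested genes. Cd68, a macrophage glycoprotein of the lysosomal membrane, stood at 12.6, 14.5 and 19.3 CPM on normal diet and 155, 117 and 131 CPM on CDAHFD. This 8.71-fold rise (3.12 ± 0.17, adjusted p = 1.58e-07) stood beside the rise of the general macrophage markers from 232 to 275 CPM to 896 to 979 CPM. Npc2, the soluble protein that hands cholesterol to the membrane transporter NPC1, was read at 80.3, 66.9 and 88.8 CPM on normal diet and 160.0, 164 and 175 CPM on CDAHFD and rose by 1.08 ± 0.12 (adjusted p = 2.45e-05). Npc1 itself went the other way at 189, 179.7 and 183 CPM on normal diet and 151, 146 and 164 CPM on CDAHFD, with no overlap and a fall of 0.26 ± 0.10 (adjusted p = 0.0481). The Npc1 call was lost without normal diet replicate 1 (adjusted p = 0.127) or 3 (0.0697) and without CDAHFD replicate 1 (0.0927) or 2 (0.0961). With total counts its change was 0.07 and with hepatocyte markers 0.28.

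The structural glycoproteins of the membrane moved apart from Cd68. Lamp2, which also serves chaperone-mediated autophagy, measured 709, 759.8 and 700.5 CPM on normal diet and 541, 529.6 and 505 CPM on CDAHFD. Each CDAHFD library was below each normal diet library, and the fall was 0.46 ± 0.10 (adjusted p = 0.00327). It was -0.14 with total counts and 0.07 with hepatocyte markers, and neither value passed. Lamp1 gave 631, 713 and 671 CPM on normal diet and 801, 745 and 839.9 CPM on CDAHFD, without overlap, and did not pass (0.24 ± 0.11, adjusted p = 0.0836). With total counts Lamp1 passed as higher (0.57, adjusted p = 0.00118). Mcoln1, the calcium channel TRPML1 that signals to TFEB, overlapped between the diets (0.04 ± 0.12, adjusted p = 0.781), and it passed as higher with total counts (0.37, adjusted p = 0.0233). With total counts or hepatocyte markers 4 of these 6 genes were higher (66.7%) and 0 lower, where 44.0% and 55.8% of all tested genes were higher.

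The proton pump subunits moved unequally, and the largest change of all 43 genes was in one isoform of a single subunit. Atp6v0d2 encodes the d2 isoform of the V0 stalk, known from osteoclasts and macrophages, and was read at 3.24, 1.22 and 1.05 CPM on normal diet and 40.5, 31.4 and 28.8 CPM on CDAHFD. The lowest CDAHFD library was far above the highest normal diet library, with a log2 change of 4.18 ± 0.31 (adjusted p = 1.22e-06), or 18.2-fold. Normal diet replicate 1 was the highest of its diet, and without it the log2 change was 4.86. Atp6v0d1, the widely expressed d1 isoform of the same subunit, overlapped between the diets at 97, 73.6 and 90.4 CPM on normal diet and 95.7, 95.5 and 111 CPM on CDAHFD and did not pass (0.21 ± 0.12, adjusted p = 0.173). In TPM, which accounts for gene length, the d2 gene made up 2.16%, 1.09% and 0.761% of both d genes on normal diet and 21.8%, 17.8% and 14.6% on CDAHFD. The mean share went from 1.34% ± 0.731 to 18.1% ± 3.60 (SD, n = 3), so d1 was still the more abundant of the pair.

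Of the cytosolic sector, Atp6v1b2, the B2 chain that forms the catalytic ring with A, measured 54.7, 46.6 and 48 CPM on normal diet and 83, 87.9 and 98.4 CPM on CDAHFD and rose by 0.85 ± 0.11 (adjusted p = 8.00e-05). Atp6v1a, the catalytic A chain, rose by 0.33 ± 0.10 from 59.9 ± 3.54 to 75.6 ± 4.43 CPM (adjusted p = 0.0157). That call was lost without normal diet replicate 3 (adjusted p = 0.055) or CDAHFD replicate 3 (0.0901). Atp6v1h, the H subunit that links both sectors and regulates the pump, stood at 56.3, 56 and 51.9 CPM on normal diet and 41.5, 42.1 and 45.3 CPM on CDAHFD, without overlap, and fell by 0.35 ± 0.10 (adjusted p = 0.0108). Its change was -0.03 with total counts and 0.19 with hepatocyte markers, and neither passed.

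The rest of the pump was read from a list of 20 other subunit genes, of which 15 were tested. With TMM 8 were higher and 0 lower, with a median of 0.28, and the counts of higher genes were 11 with total counts and 13 with hepatocyte markers. Those are 53.3%, 73.3% and 86.7% of the tested subunit genes, where 28.5%, 44.0% and 55.8% of all tested genes were higher. Without normal diet replicate 2 or CDAHFD replicate 1 the number with TMM was 5, and without CDAHFD replicate 3 it was 4. Atp6v0e2, a second isoform of the small e subunit, rose from low levels, 0.395 ± 0.0461 to 3.32 ± 0.18 CPM (3.05 ± 0.27). It passed the filter on low counts only with its CDAHFD libraries, so its call is no separate support. Tcirg1, the a3 isoform of the large V0 subunit, known from osteoclasts and macrophages, rose by 0.99 ± 0.12, Atp6v0e by 0.73 ± 0.11 and the proton ring gene Atp6v0c by 0.60 ± 0.15. In TPM, Tcirg1 took 33.2% ± 4.33 of the 3 tested a subunit genes on normal diet and 47.9% ± 2.61 on CDAHFD, and Atp6v0e2 took 1.67% ± 0.206 and 7.95% ± 0.970 of the e genes.

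**Figure D4:**
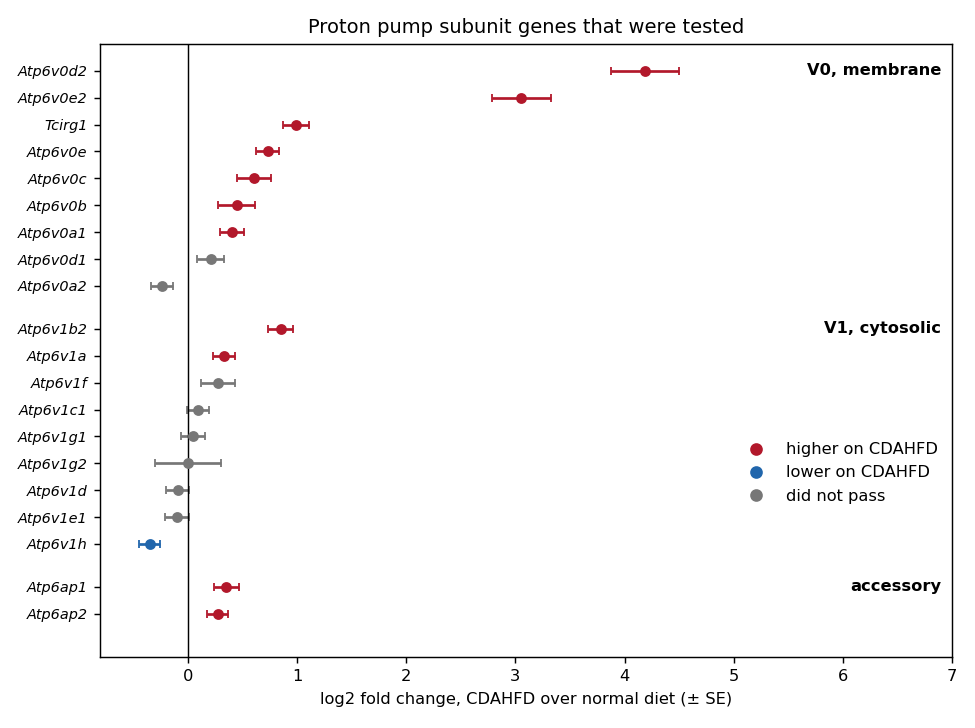
Log2 fold change of CDAHFD over normal diet (horizontal axis, with standard errors as bars) for the 20 tested proton pump genes, 5 described in detail and 15 from the wider list, grouped into the V0 membrane sector, the V1 cytosolic sector and accessory proteins, with TMM scaling. Atp6v0d2 and Atp6v0e2 lie at 4.18 and 3.05, and Atp6v0e2 passed the filter on low counts only with its CDAHFD libraries. All others lie below 1, and Atp6v1h is the single lower call, which was lost with total counts and with hepatocyte markers.

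Among the transcription factors that bind the CLEAR element, 1 of 3 passed as higher (33.3%), near the 28.5% of all tested genes. Mitf, which drives lysosomal genes in osteoclasts, macrophages and pigment cells, was low at 4.27, 3.77 and 3.95 CPM on normal diet and 7.41, 6.94 and 6.51 CPM on CDAHFD. All CDAHFD libraries were above all normal diet libraries, and the log2 change was 0.80 ± 0.16 (adjusted p = 0.00158). Tfeb, the best known regulator of lysosome formation, overlapped between the diets at 12.4, 9.6 and 14.3 CPM on normal diet and 13.9, 14.4 and 12.7 CPM on CDAHFD (0.17 ± 0.15, adjusted p = 0.375). Tfe3 did not overlap at 32.1, 30.6 and 32.5 CPM on normal diet and 37.1, 33.7 and 37.8 CPM on CDAHFD but did not pass (0.19 ± 0.10, adjusted p = 0.141). With total counts or hepatocyte markers all 3 were higher, where 44.0% and 55.8% of all tested genes were. Tfe3 was the most abundant of the trio in TPM on both diets (8.3 ± 0.155 to 12.2 ± 1.1 TPM), and Mitf made up 10.4% ± 0.764 of their sum on normal diet and 15.1% ± 0.738 on CDAHFD. These factors are controlled largely by their place in the cell, which RNA does not show.

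Levels between genes were compared in TPM, which carries no TMM factor and so shares the shift of the total counts. The 43 genes summed to 3936, 4213 and 4123 TPM on normal diet and 10029, 9323 and 10639.5 TPM on CDAHFD. The mean went from 4091 ± 141 to 9997 ± 659 TPM, 2.44 times as high. Psap was the most abundant gene on both diets (615 ± 38.4 to 2139 ± 207 TPM), with 15.0% ± 0.517 of the sum on normal diet and 21.4% ± 1.11 on CDAHFD. Lamp1 took 14.9% ± 1.14 of the sum on normal diet and 9.29% ± 0.234 on CDAHFD. Cd68 moved from place 25 to place 10 of the 43, Ctss from 14 to 5 and Atp6v0d2 from 39 to 30, while Lamp2 moved from 7 to 16.

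The makeup of the cathepsins changed with their sum. The 13 cathepsin genes summed to 1545 ± 38.4 TPM on normal diet and 4100.4 ± 195 TPM on CDAHFD. Ctss took 4.69% ± 0.642 of that sum on normal diet and 16.6% ± 2.21 on CDAHFD, and Ctsd 9.06% ± 1.30 and 16.0% ± 1.51. The share of Ctsz, the most abundant cathepsin gene on both diets, was 31.2% ± 0.484 and 23.2% ± 1.03, and that of Ctsh 10.4% ± 0.143 and 5.12% ± 0.199. Ctsb had a share of 16.6% ± 0.219 and 17.9% ± 1.19. For these 5 genes the shares of the 2 diets did not overlap, for Ctsb only narrowly (16.83% in normal diet replicate 3 against 16.93% in CDAHFD replicate 1). Nor did those of Ctsa, Ctse, Ctsf, Ctsk, Ctsl and Ctso, while those of Ctsc and Ctsw overlapped.

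By level on normal diet, 8 of the 43 genes were under 10 TPM, and 6 of them rose, with a median log2 change of 1.56. Of the 24 genes from 10 to 100 TPM, 16 rose and 3 fell, with a median of 0.53, and of the 11 genes at 100 TPM or more 7 rose and 1 fell, with a median of 0.61. The level on normal diet is also the base of each change, so these groups are not independent of the changes. Among the low genes, Ctsk, Ctsw and Ctse had 7, 6 and 6 counts in normal diet replicate 1. That is under the filter's 10, and they passed it through their CDAHFD libraries. The median coefficient of variation between libraries of a diet was 8.66% on normal diet and 7.30% on CDAHFD. Some genes with large changes spread far more on normal diet, with 66.2% for Atp6v0d2, 62.0% for Ctsw, 53.6% for Ctse and 29.5% for Ctsk. CDAHFD replicate 3 was the highest library of its diet for 23 of the 43 genes, replicate 1 for 12 and replicate 2 for 8.

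The wider set of lysosomal genes was read from lists of other hydrolases, membrane proteins, sorting factors, cystatins, nutrient sensors and autophagy genes. Including the pump, 117 of 128 listed genes were tested, and 46 were higher and 18 lower with TMM, 77 and 5 with total counts, and 91 and 0 with hepatocyte markers. That is 39.3%, 65.8% and 77.8% higher, where 28.5%, 44.0% and 55.8% of all tested genes were. The shares lower were 15.4%, 4.27% and 0.0%, against 23.5%, 8.07% and 3.91% of all tested genes. The other hydrolases came nearest to the 43 genes, with 18 of 30 higher, 2 lower and a median of 0.45. Naaa, which hydrolyses fatty acid ethanolamides, rose by 1.53 ± 0.18, the carboxypeptidase gene Prcp by 1.44 ± 0.13 and the sulfatase gene Galns by 1.15 ± 0.13. Total counts gave 25 higher and 0 lower in this list, and hepatocyte markers 28 and 0.

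Other membrane proteins moved both ways, with 9 of 20 tested genes higher, 3 lower and a median of 0.30. That is 45.0% higher and 15.0% lower, against 28.5% and 23.5% of all tested genes. Cd63, a tetraspanin of late endosomes and lysosomes, was read at 3.34, 3.38 and 3.55 CPM on normal diet and 83.8, 68.2 and 93.6 CPM on CDAHFD, and rose by 4.58 ± 0.15 (adjusted p = 8.06e-09), more than any of the 43 genes. Laptm5, a lysosomal protein of blood cells, rose by 2.52 ± 0.13, the macrophage metal transporter gene Slc11a1 by 2.40 ± 0.12 and the channel gene Tpcn2 by 2.07 ± 0.16. With total counts 15 were higher and 1 lower, and with hepatocyte markers 17 and 0. Those are 75.0% and 85.0% higher, where 44.0% and 55.8% of all tested genes were. Of 7 listed cystatin genes, inhibitors of cysteine cathepsins, 3 were tested, and the rest did not pass the filter on low counts. The 3 tested genes were all higher under each of the 3 scalings, where 28.5%, 44.0% and 55.8% of all tested genes were. Cstb, the cytosolic inhibitor, stood at 29.6, 26 and 33.7 CPM on normal diet and 103, 88.7 and 112 CPM on CDAHFD, without overlap, and rose by 1.77 ± 0.13 (adjusted p = 1.15e-06). Cst3, the secreted one, rose by 0.77 ± 0.14.

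Genes that deliver hydrolases or sense nutrients at the lysosome changed less. Of 9 sorting genes 3 were higher and 0 lower, with a median of 0.29: Gga2 (0.74 ± 0.13), Gnptab, a subunit of the enzyme that makes the mannose 6-phosphate tag (0.71 ± 0.18), and the sorting receptor gene Sort1 (0.40 ± 0.15). The Sort1 call was lost when any library but normal diet replicate 3 was left out. The 33.3% higher with TMM is near the 28.5% of all tested genes. With total counts and with hepatocyte markers all 9 were higher, where 44.0% and 55.8% of all tested genes were. Among 17 tested nutrient sensing genes 2 were higher and 2 lower, 11.8% each, with a median of -0.02 that was 0.31 with total counts. Over all tested genes the shares with TMM were 28.5% and 23.5%. Rragd, a Rag GTPase gene that MiT/TFE factors induce, measured 2.01, 1.18 and 1.5 CPM on normal diet and 19.6, 12.3 and 23.5 CPM on CDAHFD and rose by 3.56 ± 0.27 (adjusted p = 1.59e-06), with no overlap. Lamtor1, the anchor of the Ragulator complex, rose by 0.43 ± 0.13, and not without CDAHFD replicate 3 (adjusted p = 0.0901). Fnip1 fell by 0.45 ± 0.12 and Rraga by 0.35 ± 0.11, the latter not without normal diet replicate 3 (adjusted p = 0.0566), and both calls were lost with total counts and with hepatocyte markers.

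Autophagy genes, which act upstream of the lysosome, were more often lower than higher with TMM, with 11 of 23 lower, 3 higher and a median of -0.28. That is 47.8% lower and 13.0% higher, against 23.5% and 28.5% of all tested genes. Ulk2 and Ulk1, the initiating kinases, fell by 0.80 ± 0.11 and 0.68 ± 0.11, the conjugating enzyme gene Atg3 by 0.74 ± 0.15 and Atg14, of the phosphatidylinositol 3-kinase complex, by 0.71 ± 0.11. With total counts 4 were lower and 7 higher, with a median of 0.05, and with hepatocyte markers 0 and 8, with a median of 0.26. Leaving out normal diet replicate 1 left 7 lower, and the 3 higher calls fell to 0 or 1 when any 1 library was left out.

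**Figure D5:**
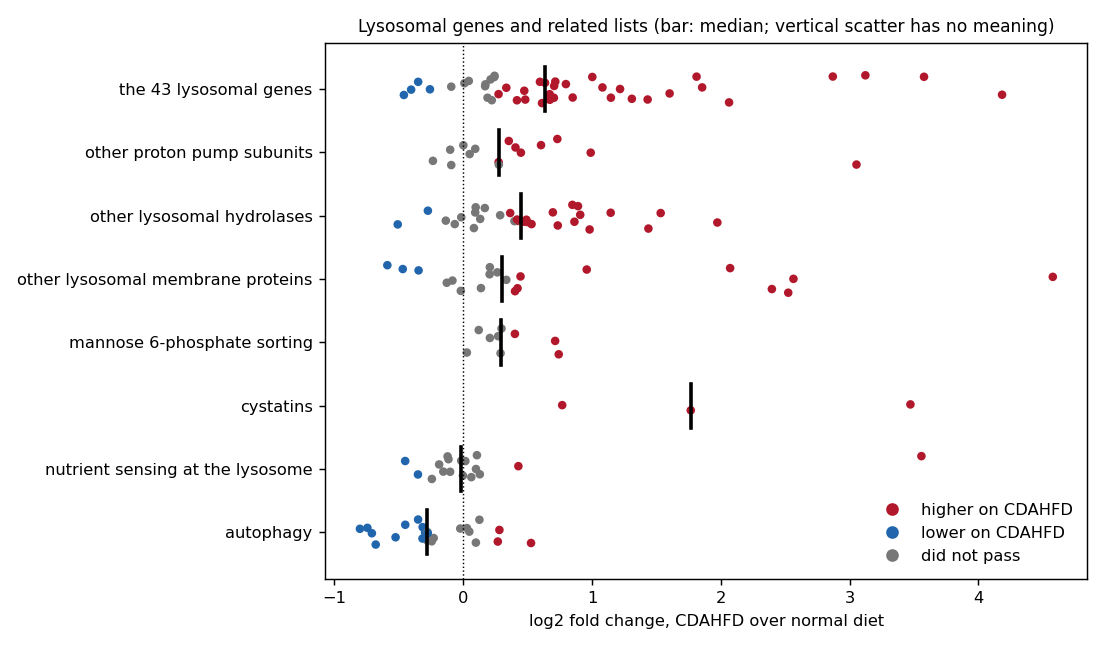
Log2 fold change of CDAHFD over normal diet (horizontal axis) for each tested gene of the 43 and of 7 related lists (rows), with TMM scaling and the median of each list as a black bar. The 43 genes have their median at 0.64, the other hydrolases at 0.45 and the autophagy genes at -0.28, which became 0.05 with total counts and 0.26 with hepatocyte markers.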

How the data were processed

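The authors deposited 1 table of raw read counts per gene and 1 table of TPM (reads scaled by gene length and library total) for the 6 libraries, with 0 other per-sample columns. Per the labels' protocols, libraries were made with a stranded mRNA kit from TRIzol-extracted RNA. STAR 2.7.11a and GRCm39 are named in the submitters' processing notes. For the counting tool, its strand setting and the annotation, nothing is given in the sources used here. Of the 43 genes, 15 share exon bases with another gene in GENCODE M21. Where the other gene lies on the opposite strand, reads cannot be told apart unless strand was used. Glb1 shares 165 bases with Tmppe on the same strand (458 counts against 2222 for Glb1), where strand does not help. Ctsd and Ctsl share bases with the same-strand genes Gm49369 and Gm49230, which had 0 counts.

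Columns were matched to samples by the diet prefix and replicate number in their names. Of 56847 gene IDs, 51911 matched a symbol. From the counts, edgeR 4.0.16 (R 4.3.3) kept 14215 genes (filterByExpr, minimum count 10) and fitted a quasi-likelihood model with diet as its term, TMM scaling and Benjamini-Hochberg adjustment over all genes tested (threshold 0.05; biological coefficient of variation 0.136). No 2 libraries were alike within sampling noise (chi-square per degree of freedom 19.1 to 43.4 within a diet). The fit was tested on simulated counts, where the share of false calls was above the threshold of 0.05 and not all changed genes were recovered. Alternatives were RLE scaling, total counts, hepatocyte markers, no filter, at least 1 CPM in 3 libraries, DESeq2 1.42.0, limma-voom and limma 3.58.1 on log2(TPM + 1) or log2(TPM + 0.1), a replicate block, and leaving out each library.

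The 43 genes and all lists were chosen with earlier results of these data known. All 43 are named. From each related list the text names the genes that passed with a mean of 1 CPM or more and changed most, at most 4 of them. From the cell marker lists it names at most the first 2 (Calcr, Marco, Cd5l, Itgam, Fabp5, Itgb3 and genes sharing exons were named after their values were seen). 1 gene selected by this rule is not reported here. Promoter windows were matched by symbol to RefSeq (GRCm38.p6). Protein sequences were not used here.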

Additional observations from a re-analysis of the deposited data

How the results depend on the processing

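The number of the 43 genes called higher stayed within 1.5 times of 29 under all 17 alternatives. The number called lower was 4 with TMM and 0 with total counts, with hepatocyte markers and in each of the 3 limma fits on TPM. Over all tested genes, those called higher numbered 6258 with total counts, 7937 with hepatocyte markers and 6175 in the unfiltered fit on log2(TPM + 1), and those called lower 1147, 556 and 714, with 835 and 824 in the filtered fits on log2(TPM + 1) and log2(TPM + 0.1). In the related lists together, 77, 91, 78, 78 and 74 genes were higher and 5, 0, 3, 3 and 3 lower with total counts, hepatocyte markers, log2(TPM + 1), log2(TPM + 0.1) and the unfiltered log2(TPM + 1). Leaving out 1 library at a time gave 27 to 28 of the 43 genes higher and 3 to 4 lower, 3530 to 4104 of all genes higher and 2871 to 3416 lower, and 34 to 43 of the related genes higher and 12 to 21 lower. The cause of these shifts was not tested.

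Changes of sign followed the scaling for most genes concerned. With hepatocyte markers Ctsf was 0.13, Lamp2 0.069, Atp6v1h 0.19, Npc1 0.28, Ctso 0.44, Fnip1 0.082 and Rraga 0.17, and with total counts Npc1 was 0.067 and Ctso 0.23. On log2(TPM + 1), with and without the filter, and on log2(TPM + 0.1), Npc1 was 0.10 and 0.11, Ctso 0.26 and 0.27, Atp6v1h 0.015 and 0.016, and Rraga 0.018 and 0.019. Ctsh, at 0.01 with TMM, was -0.0097 with RLE scaling and with DESeq2, and ran from -0.065 to 0.049 with 1 library left out, below 0 without normal diet replicate 1, normal diet replicate 2, CDAHFD replicate 1 or CDAHFD replicate 3. Mcoln1 ran from -0.077 to 0.12 with 1 library left out, below 0 without normal diet replicate 2 or CDAHFD replicate 1. Neu1 also lost its call with no filter (adjusted p = 0.089) and with DESeq2 (0.058), and Npc1 with no filter (0.122) and with the stricter filter (0.0645).

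With the replicate number as a block, 29 of the 43 genes were higher and 3 lower, the lost one being Npc1 (adjusted p = 0.0697), against 4046 higher and 3311 lower of all genes and 46 and 16 of the related genes. Same-numbered libraries had correlations of their deviations of -0.047, 0.069 and 0.118, and the other pairs ran from -0.145 to 0.089. Not every library correlated best with its own number. With 3 libraries a diet these values cannot settle whether same-numbered libraries share more than a number. Genes under about 1 CPM on normal diet, such as Ctsk, Ctsw and Ctse, rest on few counts, which limits the precision of their changes. These 3 passed the filter on low counts only with their CDAHFD libraries, as did Atp6v0e2 and the cell markers Gpnmb, Trem2, Itgam, Cd3e and Cd3d.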
